A study of Mus musculus with 9 samples.

Results

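The genes described here were 10 transcription factors of the primitive streak and the mesoderm that leaves it: Mesp1, Mesp2, Mixl1, Lhx1, Otx2, Gsc, Evx1, Cdx1, Cdx2 and Cdx4. They were chosen by name, with earlier results of these data known. All 10 were measured among the 14860 genes of the array, each by 1 transcript cluster that carried no other gene's symbol. Of these, 8 are homeobox genes, whose proteins bind DNA through a homeodomain, and the other 2, Mesp1 and Mesp2, encode basic helix-loop-helix proteins. Expression was measured on the Affymetrix Mouse Exon 1.0 ST array in cells of 1 mouse embryonic stem cell line, E14.1 from the 129/Ola strain, in 3 groups of 3 arrays. The cTnT+ group held cardiomyocytes, named for cardiac troponin T. The Flk1+Pdgfra+ group held cardiac progenitors sorted for the receptors Flk1 (gene Kdr) and Pdgfra. The Flk1+ group held progenitors of the same differentiation that carried Flk1 and lacked Pdgfra in the sort. The cTnT+ cells were grown on from Flk1+Pdgfra+ cells, and the labels do not say whether they were sorted for cTnT, or on which day any group was taken. All 3 groups share that line, and no group of undifferentiated cells was among the 9 arrays. Whether the 3 arrays of a group stand for separate cultures is not in the labels, so the p-values speak only of array-to-array spread, part of which may be technical.

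The primitive streak is the region of the posterior epiblast where cells leave an epithelium and become mesoderm or endoderm, under Wnt, Nodal, BMP and FGF signals. Eomes and Mixl1 act early in this step, Gsc, Lhx1 and Otx2 are used at its anterior end and in the tissues that arise there, and Evx1 and the Cdx genes are used toward its posterior end. Mesp1 is switched on for a short time in nascent mesoderm that includes the precursors of the heart, and is then switched off again as these cells move away from the streak. In embryonic stem cell cultures the same genes are widely used to mark passage through a streak-like state.

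Values were log2 expression levels, in which 1 unit is a 2-fold step. Array medians lay between 7.26 and 7.53, and the lower quartiles of the arrays between 5.60 and 5.69. Kdr had a level of 11.98 ± 0.25 in Flk1+Pdgfra+ cells and 12.30 ± 0.16 in Flk1+ cells (SD, n = 3 arrays each). Pdgfra had a level of 11.35 ± 0.42 in Flk1+Pdgfra+ cells and 6.96 ± 0.40 in Flk1+ cells, as the gates were labelled. Tnnt2, which encodes cardiac troponin T, had a level of 12.28 ± 0.38 in cTnT+ cells and 7.01 ± 0.37 in Flk1+Pdgfra+ cells. In Flk1+ cells Tnnt2 was at 8.36 ± 0.52, which was 2.54-fold above Flk1+Pdgfra+ cells (limma, adjusted p = 0.0289). In cTnT+ cells Kdr was at 10.84 ± 0.50 and Pdgfra at 11.31 ± 0.32. The third array of each progenitor group stood apart from the other 2 of its group. The mean level of 9 genes of pluripotent and epiblast cells was 8.19, 8.28 and 8.69 on the Flk1+Pdgfra+ arrays and 7.02, 7.23 and 9.41 on the Flk1+ arrays. Counts of the factors, and of the gene lists other than the cell type markers, are given with and without these arrays. So are folds that move by more than 1.5 times. As the samples are bulk RNA, fewer cells of a type and less RNA per cell cannot be told apart.

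Across the 3 groups, 7 of the 10 factors had their highest mean in Flk1+Pdgfra+ cells and passed the test there against both other groups. These 7 were Mesp1, Mesp2, Mixl1, Lhx1, Otx2, Gsc and Evx1. In cTnT+ cells, set against Flk1+Pdgfra+ cells, all 7 fell and none of the 10 rose, where 18.7% of all genes tested fell and 22.5% rose (limma, adjusted p under 0.05). In Flk1+Pdgfra+ cells, set against Flk1+ cells, the same 7 rose and none of the 10 fell, against a background of 4.64% higher and 5.87% lower. In cTnT+ cells, set against Flk1+ cells, Mixl1, Gsc and Evx1 fell and none of the 10 rose, against a background of 16.6% lower and 22.6% higher. The median log2 difference of the 10 was -2.73 for cTnT+ against Flk1+Pdgfra+, where that of all genes was 0.00. It was 1.71 for Flk1+Pdgfra+ against Flk1+, where that of all genes was 0.07, and -0.61 for cTnT+ against Flk1+, where that of all genes was 0.05. The 3 comparisons share arrays and are not independent of each other. Cdx1, Cdx2 and Cdx4 passed none of them. The count of 7 that rose between the gates was 4 without Flk1+Pdgfra+ array 1, 4 without Flk1+ array 1 and 4 without Flk1+ array 2, and the count of 3 that fell between cTnT+ and Flk1+ cells was 1 without cTnT+ array 1. The background moved as well. With 1 array left out, 1.37% to 8.79% of all genes rose between the gates. The share lower in cTnT+ than in Flk1+ cells was then 12.7% to 16.6%. Centring each array on its median changed the background of cTnT+ against Flk1+Pdgfra+ to 13.4% higher and 36.4% lower, and that of cTnT+ against Flk1+ to 12.8% higher and 31.8% lower. Quantile normalization gave 18.5% higher and 26.3% lower in the first of these and 17.3% higher and 24.5% lower in the second.

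**Figure D1:**
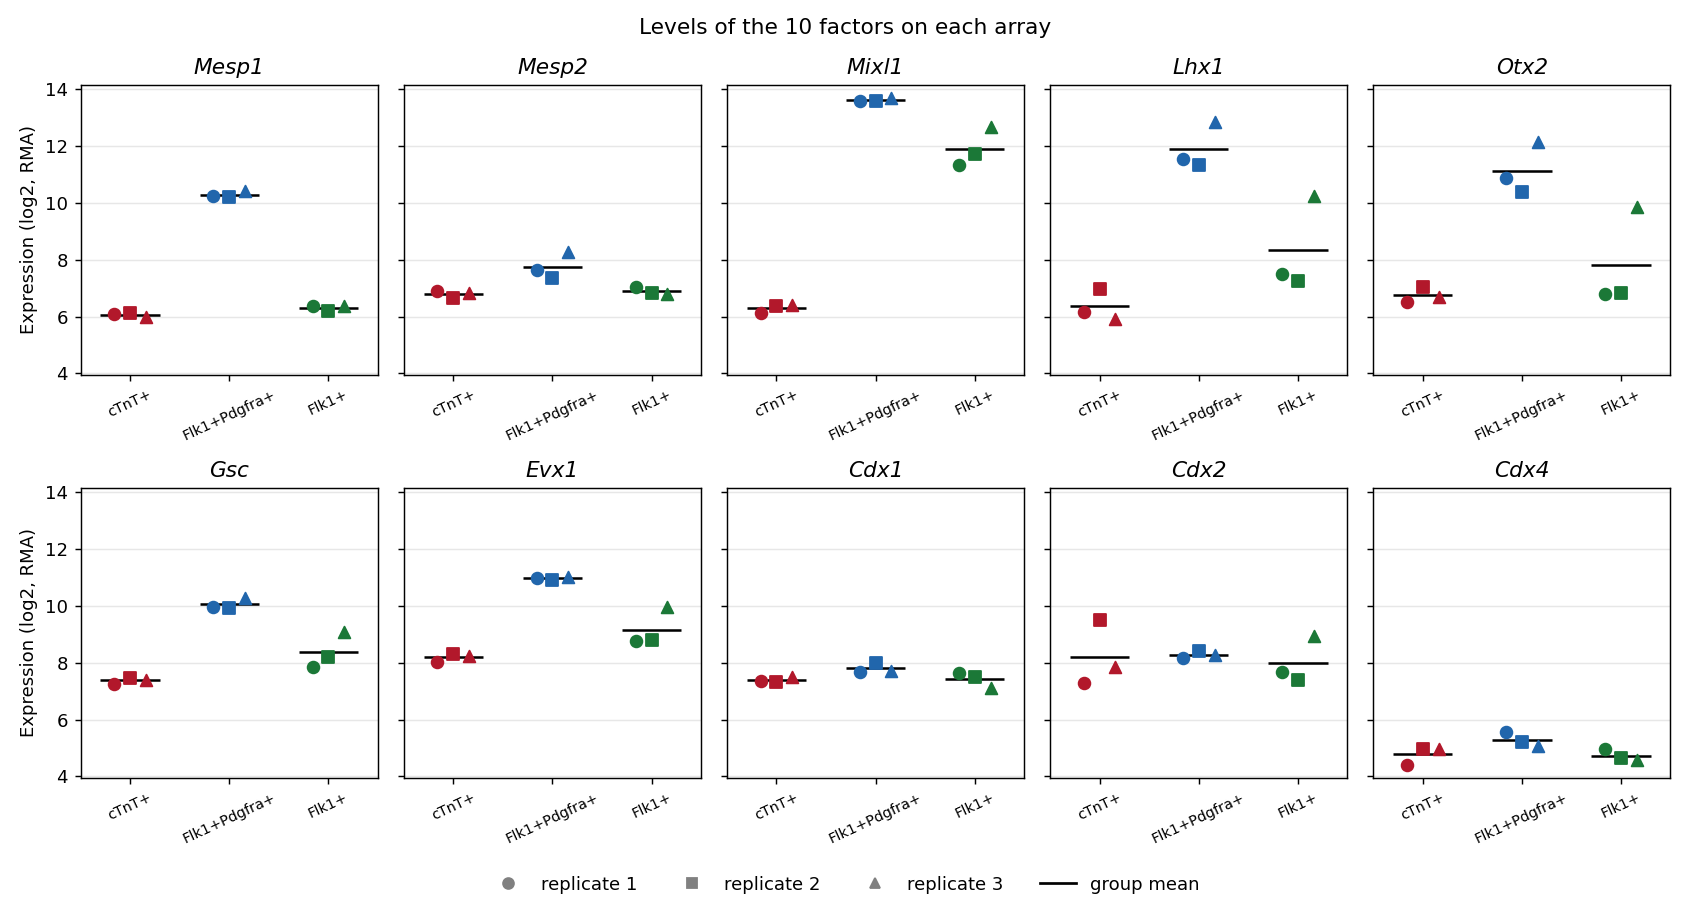
Log2 expression level (vertical axis) of each of the 10 factors on the 9 arrays, with cTnT+, Flk1+Pdgfra+ and Flk1+ cells from left to right. Points are single arrays marked by replicate number and bars are group means. Mesp1 lies between 10.21 and 10.41 in Flk1+Pdgfra+ cells and below 6.4 on the 6 other arrays, while the third Flk1+ array lies above the other Flk1+ arrays for Lhx1, Otx2, Gsc and Evx1.

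Mesp1, the basic helix-loop-helix factor of early cardiac mesoderm, had the largest difference of the 10 between the progenitor gates over all 9 arrays and the smallest error. Without the third progenitor arrays the difference of Lhx1 was larger (4.06, against 3.93 for Mesp1). The level of Mesp1 was 6.11, 6.13 and 5.98 on the cTnT+ arrays, 10.25, 10.21 and 10.41 on the Flk1+Pdgfra+ arrays, and 6.39, 6.21 and 6.36 on the Flk1+ arrays. The Flk1+Pdgfra+ arrays were high together and did not overlap with either other group, and array 3 stood 0.18 above the mean of the other 2 in Flk1+Pdgfra+ cells and 0.06 above it in Flk1+ cells. Mesp1 was 15.7-fold higher in Flk1+Pdgfra+ cells than in Flk1+ cells (log2 difference 3.97, SE 0.09, adjusted p = 7.62e-07). It was 18.5-fold lower in cTnT+ cells than in Flk1+Pdgfra+ cells (log2 difference -4.21, SE 0.09, adjusted p = 2.79e-07). Between cTnT+ and Flk1+ cells the log2 difference was -0.24, which did not pass (adjusted p = 0.0665). That difference did pass after quantile normalization (-0.44, adjusted p = 0.00541) or median centring (-0.58, adjusted p = 0.0066).

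Mesp2, a close relative known in the mouse for its role in somite boundary formation, had a far smaller range. Its level was 6.91, 6.65 and 6.84 in cTnT+ cells, 7.63, 7.36 and 8.27 in Flk1+Pdgfra+ cells, and 7.06, 6.82 and 6.78 in Flk1+ cells. The Flk1+Pdgfra+ arrays lay above all others without overlap, and the third was the highest. Mesp2 was 1.93-fold lower in cTnT+ cells than in Flk1+Pdgfra+ cells (log2 difference -0.95, SE 0.22, adjusted p = 0.00798). It was 1.82-fold higher in Flk1+Pdgfra+ cells than in Flk1+ cells (log2 difference 0.87, SE 0.22, adjusted p = 0.0401). This second call was lost in 14 of 21 alternatives. It was lost without Flk1+Pdgfra+ array 1 (adjusted p = 0.0913), without Flk1+ array 1 (0.0725), 2 (0.136) or 3 (0.0719), and without cTnT+ array 1 (0.0554), 2 (0.055) or 3 (0.0573). With the replicate number as a block on the 6 progenitor arrays its adjusted p was 0.0865. The log2 difference of cTnT+ from Flk1+ cells was -0.08 (adjusted p = 0.802).

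The promoters of Mesp1 and Mesp2 are shown because both genes lie on chromosome 7 and both were highest in Flk1+Pdgfra+ cells, with unlike ranges. The sequences are from RefSeq on build GRCm38.p6, run 5′ to 3′ on the strand of the gene and hold the 250 bases before the start. The Mesp1 window lies at chr7:79793591-79793840 on the minus strand and the Mesp2 window at chr7:79810477-79810726 on the plus strand. Capitals mark matches to CTTTGA, a Tcf/Lef type motif of Wnt signalling, on either strand.
Mesp1: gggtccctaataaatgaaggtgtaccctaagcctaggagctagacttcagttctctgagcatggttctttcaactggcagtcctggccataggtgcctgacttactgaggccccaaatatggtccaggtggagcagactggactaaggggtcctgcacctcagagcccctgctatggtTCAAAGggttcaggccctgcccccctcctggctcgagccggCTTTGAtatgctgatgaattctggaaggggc
Mesp2: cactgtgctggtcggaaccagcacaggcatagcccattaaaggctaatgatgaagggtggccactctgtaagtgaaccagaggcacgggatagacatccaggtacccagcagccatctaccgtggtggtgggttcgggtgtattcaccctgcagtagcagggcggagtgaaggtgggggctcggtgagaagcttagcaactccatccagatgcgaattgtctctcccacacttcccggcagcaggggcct
The Mesp1 window held 2 matches, 1 on the minus strand starting 72 bases before the gene's start and 1 on the plus strand starting 31 bases before it. The Mesp2 window held none. Of all 32817 promoter windows of this length, 13.8% held at least 1 match, and a match is a description of letters and not of a bound site. Also searched on both strands were TGTGNATT, a Foxh1 type motif present in 3.18% of windows, GGTGTGA, a T-box type motif in 3.33%, and TAATCC, a bicoid homeodomain type motif in 6.25%. None of these was in the Mesp1 or Mesp2 window. The matches printed here do not overlap each other.

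Mixl1, a paired-type homeobox factor of the streak that acts in mesoderm and endoderm formation, had the largest differences of the 10 between cTnT+ cells and either progenitor group. Its level was 6.14, 6.38 and 6.40 in cTnT+ cells, 13.60, 13.60 and 13.69 in Flk1+Pdgfra+ cells, and 11.34, 11.72 and 12.66 in Flk1+ cells. The 3 groups did not overlap, and the third Flk1+ array was the highest of its group. Mixl1 was 160.2-fold lower in cTnT+ cells than in Flk1+Pdgfra+ cells (log2 difference -7.32, SE 0.29, adjusted p = 4.54e-06). It was 48.4-fold lower in cTnT+ cells than in Flk1+ cells (log2 difference -5.60, SE 0.29, adjusted p = 1.30e-05). It was 3.31-fold higher in Flk1+Pdgfra+ cells than in Flk1+ cells (log2 difference 1.73, SE 0.29, adjusted p = 0.00827). Mixl1 thus differed from Mesp1 in its Flk1+ level, which stood 5.60 log2 units above that of cTnT+ cells, where the same distance for Mesp1 was 0.24.

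Gsc, a homeobox repressor of the anterior streak, had the same order of groups as Mixl1 over a narrower range. Its level was 7.26, 7.47 and 7.41 in cTnT+ cells, 9.96, 9.94 and 10.28 in Flk1+Pdgfra+ cells, and 7.86, 8.20 and 9.07 in Flk1+ cells. No groups overlapped. Gsc was 6.42-fold lower in cTnT+ cells than in Flk1+Pdgfra+ cells (log2 difference -2.68, SE 0.27, adjusted p = 1.42e-04). It was 3.22-fold higher in Flk1+Pdgfra+ cells than in Flk1+ cells (log2 difference 1.69, SE 0.27, adjusted p = 0.0076). Between cTnT+ and Flk1+ cells the log2 difference was -0.996 (SE 0.27, adjusted p = 0.02), and it was -0.94 without cTnT+ array 1, where the call was lost (adjusted p = 0.0616). Without Flk1+ array 3 it was -0.65 (adjusted p = 0.0111).

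Evx1, an even-skipped type homeobox factor of the posterior streak, followed Gsc closely across the arrays, with a Pearson r of 1.00 over the 9 arrays as a description. Its level was 8.03, 8.32 and 8.24 in cTnT+ cells, 10.99, 10.91 and 11.01 in Flk1+Pdgfra+ cells, and 8.77, 8.79 and 9.95 in Flk1+ cells. The groups did not overlap, and the third Flk1+ array again lay nearest to the Flk1+Pdgfra+ arrays. Evx1 was 6.84-fold lower in cTnT+ cells than in Flk1+Pdgfra+ cells (log2 difference -2.77, SE 0.29, adjusted p = 1.49e-04). It was 3.49-fold higher in Flk1+Pdgfra+ cells than in Flk1+ cells (log2 difference 1.80, SE 0.29, adjusted p = 0.00698). Between cTnT+ and Flk1+ cells the log2 difference was -0.97 (SE 0.29, adjusted p = 0.0268). That call was lost without cTnT+ array 1 (adjusted p = 0.082), 2 (0.0508) or 3 (0.0585), and the log2 difference was -0.58 without Flk1+ array 3 (adjusted p = 0.00377).

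The windows of Gsc and Evx1 are set beside each other because these genes, used at opposite ends of the streak in the embryo, had nearly the same profile here. The Gsc window lies at chr12:104473237-104473486 on the minus strand and the Evx1 window at chr6:52313248-52313497 on the plus strand.
Gsc: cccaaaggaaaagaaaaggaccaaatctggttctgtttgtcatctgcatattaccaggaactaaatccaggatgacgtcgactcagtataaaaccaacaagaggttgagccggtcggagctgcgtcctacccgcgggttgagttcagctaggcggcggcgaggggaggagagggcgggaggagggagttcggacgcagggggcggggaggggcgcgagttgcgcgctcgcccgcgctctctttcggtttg
Evx1: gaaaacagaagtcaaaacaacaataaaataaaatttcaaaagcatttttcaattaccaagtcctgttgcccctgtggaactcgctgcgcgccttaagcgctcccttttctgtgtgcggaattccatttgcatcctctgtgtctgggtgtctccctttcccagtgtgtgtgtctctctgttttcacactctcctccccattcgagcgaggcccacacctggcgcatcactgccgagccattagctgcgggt
None of the 4 motifs was found in either window, which says only that these letters are not in these 250 bases. The G and C share was 59.2% in the Gsc window and 49.6% in the Evx1 window, where the median of all windows was 52.4%. RefSeq windows of 8 of the 10 factors were searched, 11 windows in all. No window was available for Mixl1, and Cdx1 was left out of the search.

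Lhx1 and Otx2 had the widest spread of the 10 within both progenitor groups. Lhx1, a LIM homeobox factor needed for head formation in the mouse, had a level of 6.18, 6.96 and 5.93 in cTnT+ cells, 11.53, 11.35 and 12.86 in Flk1+Pdgfra+ cells, and 7.51, 7.24 and 10.25 in Flk1+ cells. The 3 groups did not overlap, and the third array was the highest in both progenitor groups. Lhx1 was 47.0-fold lower in cTnT+ cells than in Flk1+Pdgfra+ cells (log2 difference -5.55, SE 0.78, adjusted p = 6.96e-04). It was 11.9-fold higher in Flk1+Pdgfra+ cells than in Flk1+ cells (log2 difference 3.58, SE 0.78, adjusted p = 0.0239), with a 95% interval from 1.79 to 5.37. That call was lost without Flk1+Pdgfra+ array 1 (adjusted p = 0.0662), 2 (0.0587) or 3 (0.0734) and without Flk1+ array 1 (0.0833) or 2 (0.0935). Without Flk1+ array 3 the fold was 23.2 (adjusted p = 0.00117). Between cTnT+ and Flk1+ cells the log2 difference was -1.98 (95% interval -3.77 to -0.19), which did not pass (adjusted p = 0.0789). It passed after quantile normalization (-2.26, adjusted p = 0.0347) and after median centring (-2.31, adjusted p = 0.0189).

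Otx2, a bicoid-type homeobox factor of the epiblast and the anterior embryo, had a level of 6.51, 7.05 and 6.69 in cTnT+ cells, 10.88, 10.39 and 12.13 in Flk1+Pdgfra+ cells, and 6.81, 6.82 and 9.87 in Flk1+ cells. The cTnT+ arrays overlapped with Flk1+ arrays 1 and 2, and the third Flk1+ array stood 3.06 above the mean of those 2. Otx2 was 20.9-fold lower in cTnT+ cells than in Flk1+Pdgfra+ cells (log2 difference -4.38, SE 0.81, adjusted p = 0.00283). It was 9.87-fold higher in Flk1+Pdgfra+ cells than in Flk1+ cells (log2 difference 3.30, SE 0.81, adjusted p = 0.0371), with a 95% interval from 1.45 to 5.16. That call was lost in 11 of 21 alternatives. Those included leaving out Flk1+Pdgfra+ array 1 (adjusted p = 0.0973), 2 (0.0714) or 3 (0.108), Flk1+ array 1 (0.113) or 2 (0.137), and cTnT+ array 1 (0.055), 2 (0.056) or 3 (0.0547). Without Flk1+ array 3 the fold was 20.0 (adjusted p = 0.00116). Against Flk1+ cells the log2 difference of cTnT+ cells was -1.08 with all arrays (adjusted p = 0.344) and -0.06 without Flk1+ array 3 (adjusted p = 0.936). Of 4 Otx2 promoter windows, 1 held a TAATCC match, which begins 211 bases before that start on the minus strand.

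The caudal-type factors Cdx1, Cdx2 and Cdx4, which pattern the posterior embryo and act on Hox genes in the mouse, passed none of the 3 comparisons with all arrays weighted alike. With array weights all 3 were higher in Flk1+Pdgfra+ than in Flk1+ cells, Cdx1 with an adjusted p of 0.0124, Cdx2 of 0.0269 and Cdx4 of 0.00177, in a fit where 30.4% of all genes were higher. The weights were 0.71, 7.73 and 0.251 for Flk1+ arrays 1, 2 and 3, so the Flk1+ level in that fit rested mostly on array 2. Cdx1 had a level of 7.37, 7.33 and 7.51 in cTnT+ cells, 7.68, 8.01 and 7.72 in Flk1+Pdgfra+ cells, and 7.63, 7.51 and 7.13 in Flk1+ cells. Its Flk1+Pdgfra+ arrays lay above all 6 others. Its log2 difference was -0.40 for cTnT+ against Flk1+Pdgfra+ (95% interval -0.74 to -0.06, adjusted p = 0.0604) and 0.38 for Flk1+Pdgfra+ against Flk1+ (0.04 to 0.72, adjusted p = 0.154). The cTnT+ difference from Flk1+Pdgfra+ cells passed in 7 of 20 alternatives, among them leaving out Flk1+ array 3 (adjusted p = 0.021).

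Cdx2 had a level of 7.28, 9.52 and 7.87 in cTnT+ cells, 8.17, 8.43 and 8.29 in Flk1+Pdgfra+ cells, and 7.68, 7.38 and 8.96 in Flk1+ cells. cTnT+ array 2 was the highest of the 9 and Flk1+ array 3 the second highest, so the groups overlapped. The log2 difference was -0.07 for cTnT+ against Flk1+Pdgfra+ (95% interval -1.41 to 1.27, adjusted p = 0.938) and 0.29 for Flk1+Pdgfra+ against Flk1+ (-1.05 to 1.63, adjusted p = 0.802). These intervals are wide enough to hold a difference of more than 2-fold either way.

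Cdx4 had a level of 4.42, 4.98 and 4.95 in cTnT+ cells, 5.58, 5.22 and 5.06 in Flk1+Pdgfra+ cells, and 4.95, 4.64 and 4.57 in Flk1+ cells. All 9 values lay below the lower quartile of the arrays, so no detection above background can be claimed for Cdx4. Its log2 difference was -0.50 for cTnT+ against Flk1+Pdgfra+ (adjusted p = 0.0757) and 0.56 for Flk1+Pdgfra+ against Flk1+ (adjusted p = 0.115). With the replicate number as a block on the 6 progenitor arrays, the second of these passed (adjusted p = 0.0236).

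**Figure D2:**
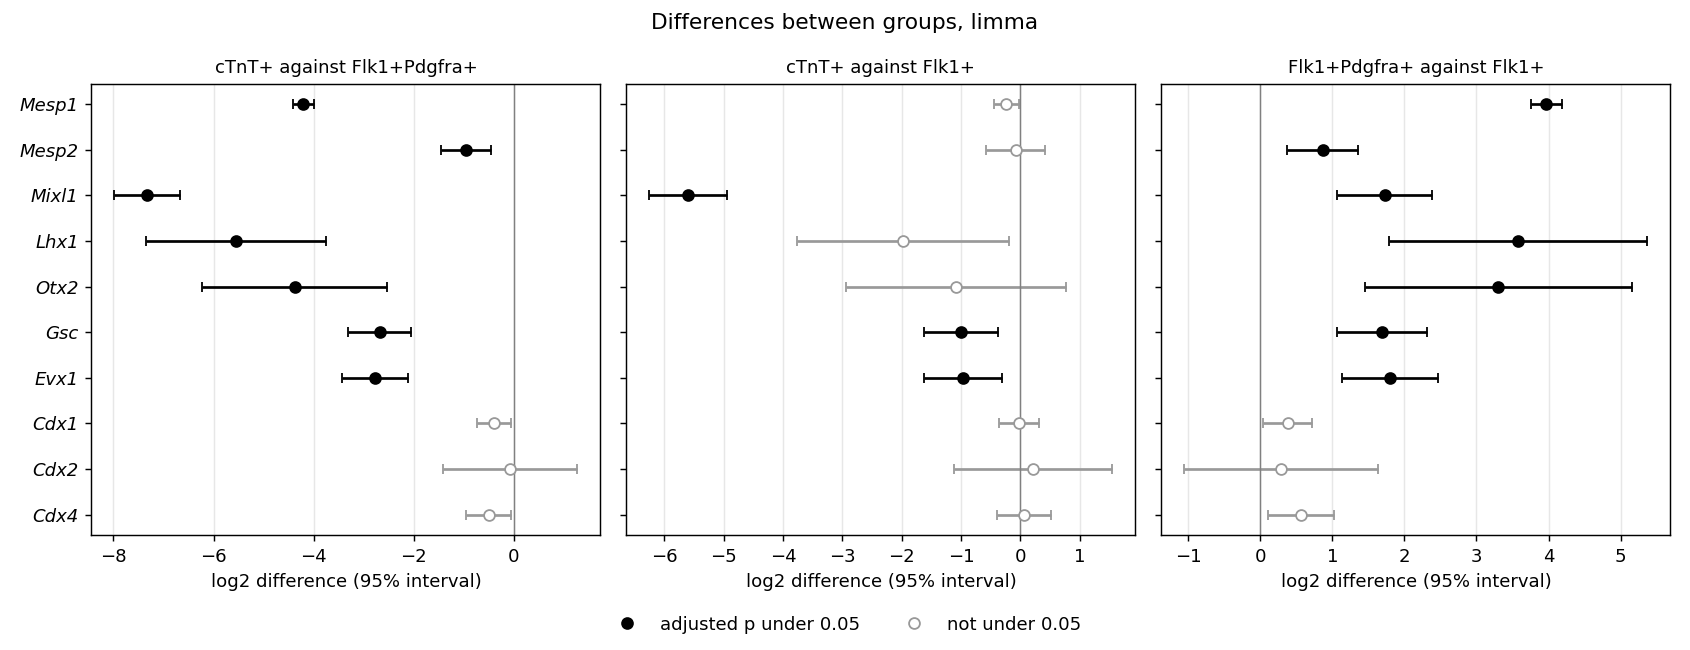
Log2 difference (horizontal axis, scaled per panel) of each factor in the 3 comparisons, with 95% intervals from limma over 9 arrays and filled points for adjusted p under 0.05. The 7 factors from Mesp1 to Evx1 lie left of 0 for cTnT+ against Flk1+Pdgfra+ and right of 0 for Flk1+Pdgfra+ against Flk1+, and the intervals of Lhx1, Otx2 and Cdx2 are the widest.

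For Mesp1, Mesp2, Mixl1, Lhx1, Otx2, Gsc and Evx1 the order of the group means over all arrays was the same, with cTnT+ cells lowest, Flk1+ cells intermediate and Flk1+Pdgfra+ cells highest. Each neighbouring pair passed the test for Mixl1, Gsc and Evx1. For Mesp1, Mesp2, Lhx1 and Otx2 the step between cTnT+ and Flk1+ cells did not pass over all 9 arrays, although for Lhx1 it was larger than for Gsc, with more spread, and its groups did not overlap. For the Cdx genes no neighbours passed.

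The third arrays of the progenitor groups deviated together, so the gate difference was also read within each number. Arrays 1 and 2 correlated at least as much across numbers as within them, so the numbers do not establish 3 matched pairs. For Mesp1 the level in Flk1+Pdgfra+ cells exceeded that in Flk1+ cells by 3.86, 3.99 and 4.05 log2 units for numbers 1, 2 and 3. The difference was 2.26, 1.89 and 1.04 for Mixl1, 2.10, 1.74 and 1.22 for Gsc, and 2.22, 2.12 and 1.07 for Evx1. It was 4.02, 4.11 and 2.61 for Lhx1 and 4.07, 3.57 and 2.26 for Otx2. In these 5 factors the difference was smallest for number 3, yet Flk1+Pdgfra+ cells were higher in 3 of 3 numbers. Mesp2 ran the other way, with 0.57, 0.54 and 1.49. Cdx1 gave 0.05, 0.50 and 0.59 and Cdx4 gave 0.63, 0.58 and 0.49, while Cdx2 gave 0.49, 1.05 and -0.68 and so changed sign at number 3.

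**Figure D3:**
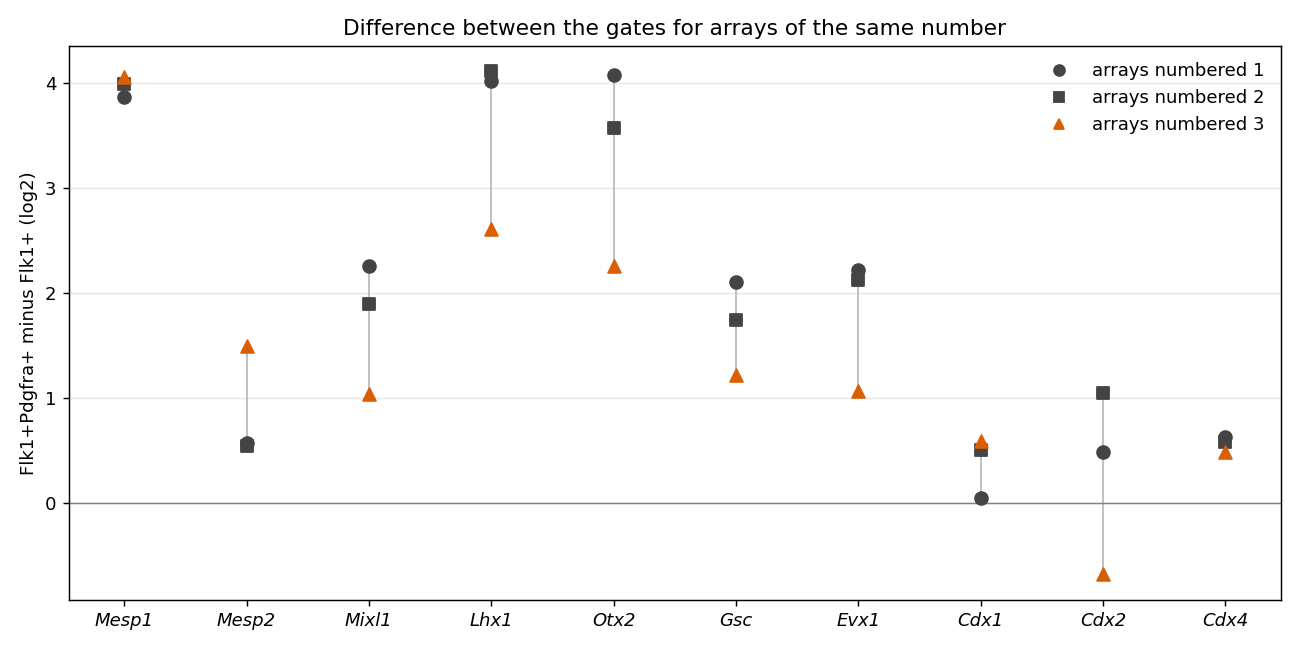
Level in Flk1+Pdgfra+ cells minus that in Flk1+ cells (log2 units, vertical axis) for each factor, separately for arrays numbered 1, 2 and 3. All points except that of Cdx2 at number 3 (-0.68) lie above 0, and number 3 is the lowest point for Mixl1, Lhx1, Otx2, Gsc and Evx1.

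The smaller gate difference at number 3 went with higher levels on the third Flk1+ array. Against the mean of arrays 1 and 2, that array was higher by 1.13 for Mixl1, 2.87 for Lhx1, 3.06 for Otx2, 1.04 for Gsc, 1.17 for Evx1 and 1.43 for Cdx2, while the shift was 0.06 for Mesp1, -0.16 for Mesp2, -0.44 for Cdx1 and -0.23 for Cdx4. The same shift over all genes had a median of -0.01 and quartiles of -0.19 and 0.23. In Flk1+Pdgfra+ cells the third array was shifted by 1.41 for Lhx1, 1.50 for Otx2 and 0.78 for Mesp2, and by at most 0.34 in size for the other factors, against a median of 0.02 and quartiles of -0.10 and 0.17 over all genes. All 9 pluripotent and epiblast genes were also highest, within the Flk1+ group, on the third Flk1+ array, by unequal amounts. On the Flk1+ arrays Pou5f1, the gene of Oct4, was at 6.69, 7.41 and 10.73 and Nanog at 6.21, 6.43 and 10.99, while Esrrb was at 6.96, 7.04 and 7.24 and Dnmt3b at 10.70, 10.65 and 10.99. On the Flk1+Pdgfra+ arrays Pou5f1 was at 10.47, 10.60 and 11.22 and Nanog at 10.56, 10.56 and 11.33. In cTnT+ cells relative to Flk1+Pdgfra+ cells 5 of the 9 fell and none rose, where 18.7% of all genes fell. Pou5f1 fell 22.6-fold (limma, adjusted p = 0.00398) and Nanog 15.7-fold (adjusted p = 0.0201). Without the third arrays 7 of the 9 fell there. Dppa4, the only gene of this list that passed between the gates, was at 5.33, 5.09 and 4.91 on the Flk1+Pdgfra+ arrays and 7.98, 8.70 and 8.86 on the Flk1+ arrays. It was 10.6-fold lower in Flk1+Pdgfra+ cells (adjusted p = 0.0126), and did not pass without the third arrays (adjusted p = 0.0606). Without those arrays 4 of the 9 rose between the gates and 1 fell. Nanog was then 18.9-fold higher in Flk1+Pdgfra+ cells (adjusted p = 3.34e-04) and Pou5f1 11.2-fold (adjusted p = 6.98e-04). The mean of 5 measured epithelial genes was 9.00, 9.05 and 8.93 on the Flk1+Pdgfra+ arrays and 6.98, 7.05 and 10.22 on the Flk1+ arrays. None of the 5 passed between the gates over all arrays. Without the third arrays all 5 rose in Flk1+Pdgfra+ cells relative to Flk1+ cells. The part of pluripotent or epithelial cells in the levels of the factors was not tested.

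With array 3 of each progenitor group left out, 6 of the 10 factors rose in Flk1+Pdgfra+ cells relative to Flk1+ cells, where 7.73% of all genes rose and 6.36% fell. The log2 differences were then 3.93 for Mesp1, 2.07 for Mixl1, 4.06 for Lhx1, 3.82 for Otx2, 1.92 for Gsc and 2.17 for Evx1, with adjusted p between 1.37e-04 and 0.001. Mesp2 did not pass (0.55, adjusted p = 0.0607). For cTnT+ against Flk1+Pdgfra+ cells, Cdx1 joined the 7 that fell (-0.44, adjusted p = 0.0297). For cTnT+ against Flk1+ cells, Lhx1 joined the 3 that fell (-1.02, adjusted p = 0.0334).

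Markers of other cell types also differed between the groups. In Flk1+Pdgfra+ cells relative to Flk1+ cells, 4.64% of all genes rose and 5.87% fell. In cTnT+ cells relative to Flk1+Pdgfra+ cells, 22.5% of all genes rose and 18.7% fell. The 8 endothelial genes had a mean level of 10.10, 10.87 and 10.19 on the cTnT+ arrays, 8.20, 8.36 and 6.35 on the Flk1+Pdgfra+ arrays, and 11.52, 11.63 and 10.38 on the Flk1+ arrays. All 8 fell in Flk1+Pdgfra+ cells relative to Flk1+ cells, and 7 of 8 rose in cTnT+ cells relative to Flk1+Pdgfra+ cells. The 7 measured blood genes had a mean level of 7.03 to 7.49 on the Flk1+Pdgfra+ arrays and 8.51 to 9.37 on the Flk1+ arrays. The 7 measured cardiomyocyte genes had a mean level of 10.24 to 11.37 in cTnT+ cells, 6.32 to 6.51 in Flk1+Pdgfra+ cells and 6.32 to 6.48 in Flk1+ cells. The mean of the endoderm genes was 7.43 to 7.71 in cTnT+ cells, 7.98 to 8.16 in Flk1+Pdgfra+ cells and 7.85 to 8.13 in Flk1+ cells. Within that list 2 of 9 rose and 1 fell between the gates, among them Cxcr4, a chemokine receptor, which was 6.45-fold higher in Flk1+Pdgfra+ cells (adjusted p = 9.00e-04), and Hhex, a homeobox gene also used in endothelium, which was 6.05-fold lower (adjusted p = 0.00291). Without the third arrays 2 of the endoderm genes rose and 2 fell between the gates. The mean of the neural genes was 7.11 to 7.49 in cTnT+ cells, 7.23 to 7.54 in Flk1+Pdgfra+ cells and 7.09 to 7.69 in Flk1+ cells. The part of the makeup of the populations in the factors' differences was not tested.

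**Figure D4:**
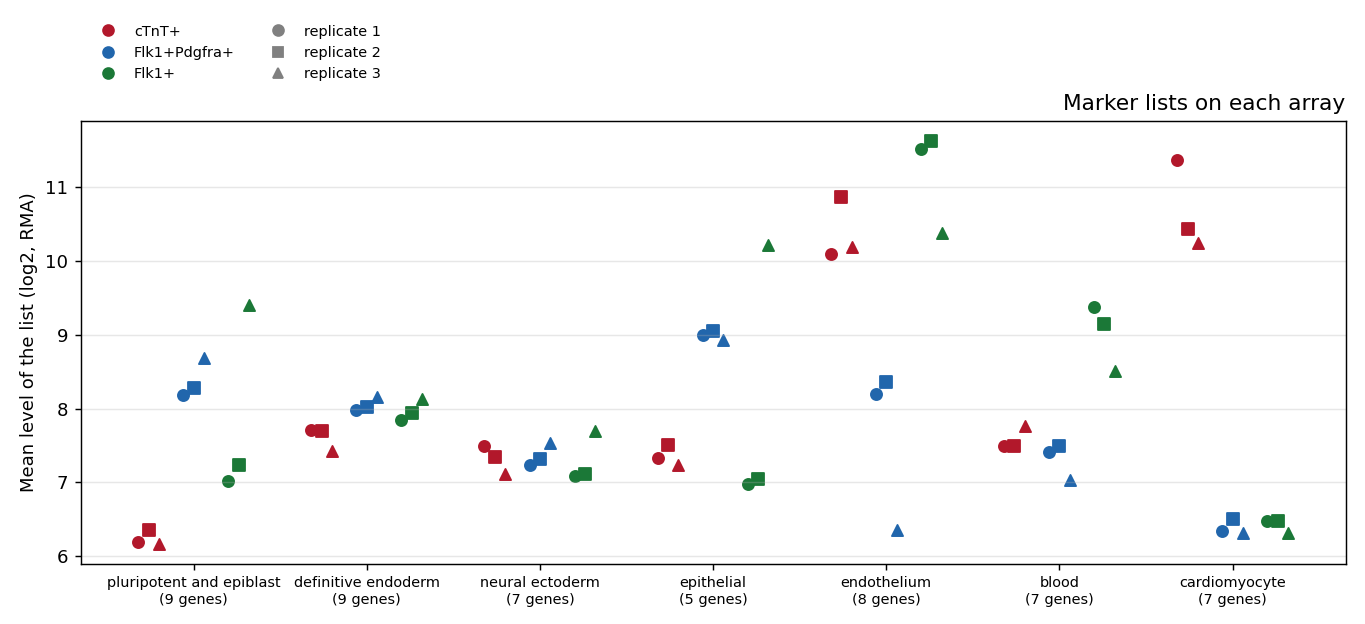
Mean log2 level of each marker list (vertical axis) on the 9 arrays, with cTnT+, Flk1+Pdgfra+ and Flk1+ cells from left to right. The pluripotent and epiblast mean is 9.41 on the third Flk1+ array, against 7.02 and 7.23 on the other Flk1+ arrays, and the endothelial mean is lowest on the Flk1+Pdgfra+ arrays.

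The counts of this and the following lists are to be read beside those of all genes. Between the gates 4.64% of all genes rose in Flk1+Pdgfra+ cells and 5.87% fell. In cTnT+ cells relative to Flk1+Pdgfra+ cells 22.5% rose and 18.7% fell, and without the third arrays 23.2% and 18.9%. Of 8 genes of the signals that induce the streak, 3 rose and none fell in Flk1+Pdgfra+ cells relative to Flk1+ cells, with a median log2 difference of 0.86. They were Tdgf1, the Nodal co-receptor (18.7-fold, adjusted p = 0.0448), Fgf8 (2.23-fold, adjusted p = 0.0237) and Wnt3 (2.07-fold, adjusted p = 0.02). Tdgf1 was at 12.88, 12.86 and 13.46 on the Flk1+Pdgfra+ arrays and at 6.97, 8.06 and 11.49 on the Flk1+ arrays, so Flk1+ array 3 was again the highest of its group. Without the third arrays Tdgf1 was 40.9-fold higher (adjusted p = 0.00703), and 5 of the 8 rose. Set against Flk1+Pdgfra+ cells, cTnT+ cells had 4 of the 8 that fell and none that rose, with a median of -1.08. Wnt3 fell 21.8-fold there (adjusted p = 7.62e-06), and Nodal fell with a log2 difference of -1.80 (adjusted p = 0.00513). When the third arrays were left out, 5 fell.

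Of 7 measured partner factors, 4 rose and none fell in Flk1+Pdgfra+ cells relative to Flk1+ cells, with a median of 1.77. Snai1, a repressor of the epithelial state, was 7.01-fold higher (adjusted p = 0.00664), Tbx6, a T-box factor of paraxial mesoderm, 4.60-fold (adjusted p = 0.016), and Sp5, a target of Wnt signalling, 4.54-fold (adjusted p = 0.0255). Against Flk1+Pdgfra+ cells, 5 fell and none rose in cTnT+ cells, with a median of -2.14. Eomes, a T-box activator of the streak, was 68.0-fold lower (adjusted p = 4.97e-06). Leaving out the third arrays, 4 again rose between the gates and 6 fell in cTnT+ cells. Of 6 measured secreted antagonists, 2 rose in Flk1+Pdgfra+ cells relative to Flk1+ cells, of which Frzb, an inhibitor of Wnt, was 20.4-fold higher (adjusted p = 0.0231). Frzb was at 10.89, 10.90 and 12.44 on the Flk1+Pdgfra+ arrays and 5.77, 5.95 and 9.46 on the Flk1+ arrays. Without the third arrays it was 32.8-fold higher (adjusted p = 4.90e-04), and 3 of the 6 rose. Set against Flk1+Pdgfra+ cells, cTnT+ cells had 2 antagonists that rose and 1 that fell, Lefty1, an inhibitor of Nodal that was 5.85-fold lower (adjusted p = 0.0148). Lefty1 was 3.31-fold lower without the third arrays, and 1 antagonist rose and 3 fell.

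Of 11 measured genes known to respond to Mesp1 in mouse cells, 3 rose in Flk1+Pdgfra+ cells relative to Flk1+ cells, namely Snai1, Gata4 (log2 difference 1.10, adjusted p = 0.0311) and Gata6 (0.88, adjusted p = 0.00157). Mef2c, a myogenic and vascular factor, fell (-1.63, adjusted p = 0.00872). Without the third arrays 6 rose and 2 fell. In cTnT+ cells relative to Flk1+Pdgfra+ cells, in which Mesp1 itself fell, 6 of the 11 rose and Snai1 alone fell. Mef2c was 28.6-fold higher there (adjusted p = 1.15e-05), Myocd, a coactivator of cardiac muscle genes, 14.4-fold (adjusted p = 2.86e-04), and Nkx2-5, a cardiac homeobox factor, 3.82-fold (adjusted p = 7.64e-04). These counts of 6 and 1 were the same without the third arrays.

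Of 9 Hox genes that respond to Cdx factors in the mouse, none passed in Flk1+Pdgfra+ cells relative to Flk1+ cells (median -0.16; limma, smallest adjusted p = 0.0765), and 1 rose in cTnT+ cells relative to Flk1+Pdgfra+ cells. That gene was Hoxb4, which was 3.94-fold higher (adjusted p = 5.25e-04). Without the third arrays Hoxb4 fell in Flk1+Pdgfra+ cells relative to Flk1+ cells (-1.14, adjusted p = 0.00952), and 1 of the 9 rose and 2 fell in cTnT+ cells relative to Flk1+Pdgfra+ cells. The Hox genes did not all vary with Cdx2 from array to array, and they are named here after their values were seen. Of the 3 Flk1+ arrays, array 3 had the highest Cdx2. Hoxc8 was at 6.74, 6.77 and 9.18 there and Hoxc6 at 5.49, 5.43 and 7.28. Also highest on array 3 were Hoxa5 (5.63, 5.78 and 6.56) and Hoxa7 (6.50, 6.45 and 7.51). So were Hoxa9 (6.62, 6.55 and 7.59) and Hoxb9 (6.89, 6.41 and 7.87). But Hoxb4 was at 8.06, 8.14 and 7.14, Hoxb6 at 7.11, 7.19 and 7.09, and Hoxb8 at 6.40, 6.05 and 6.13. On the 3 cTnT+ arrays, of which array 2 had the highest Cdx2, Hoxc8 was at 6.07, 6.71 and 7.34 and Hoxc6 at 5.67, 5.76 and 6.27.

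Relatives of the 10 factors did not follow them as a group. Of 13 measured LIM, bicoid-type and other homeobox relatives, 2 rose and 1 fell in Flk1+Pdgfra+ cells relative to Flk1+ cells, with a median of 0.19. Isl1, a LIM homeobox factor of second heart field progenitors, was 4.04-fold higher (adjusted p = 0.00975), and Otx1 3.09-fold (adjusted p = 0.00488). In cTnT+ cells relative to Flk1+Pdgfra+ cells Otx1 was 3.54-fold lower (adjusted p = 4.49e-04), in the direction of Otx2, while Isl1 was 2.65-fold higher (adjusted p = 0.0119), opposite to Lhx1. Lhx6 fell in Flk1+Pdgfra+ cells relative to Flk1+ cells (log2 difference -0.79, adjusted p = 0.0206). In cTnT+ cells relative to Flk1+Pdgfra+ cells 1 of the 13 rose and 1 fell, where 22.5% of all genes rose and 18.7% fell. The counts of these relatives were the same without the third arrays in both comparisons.

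The 10 cofactor genes were Ldb and Ssbp genes, listed for LIM homeobox factors, and Tle genes, listed for Gsc. No binding was measured here. Of the 10, 1 rose and 2 fell in Flk1+Pdgfra+ cells relative to Flk1+ cells, where 4.64% of all genes rose and 5.87% fell. Tle3 rose (log2 difference 0.85, adjusted p = 0.0199), and Ssbp4 (-0.80, adjusted p = 0.0318) and Ssbp2 (-0.70, adjusted p = 0.0155) fell. Without the third arrays Ssbp4 did not pass (adjusted p = 0.0956) and Ldb2 fell (-1.33, adjusted p = 0.036). Against Flk1+Pdgfra+ cells, 4 rose and 4 fell in cTnT+ cells, where 22.5% of all genes rose and 18.7% fell. Tle5 was 7.63-fold higher (adjusted p = 8.58e-06), Ldb2 6.70-fold (adjusted p = 0.00154) and Ssbp2 5.89-fold (adjusted p = 8.58e-06). The counts were 4 and 3 without the third arrays.

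**Figure D5:**
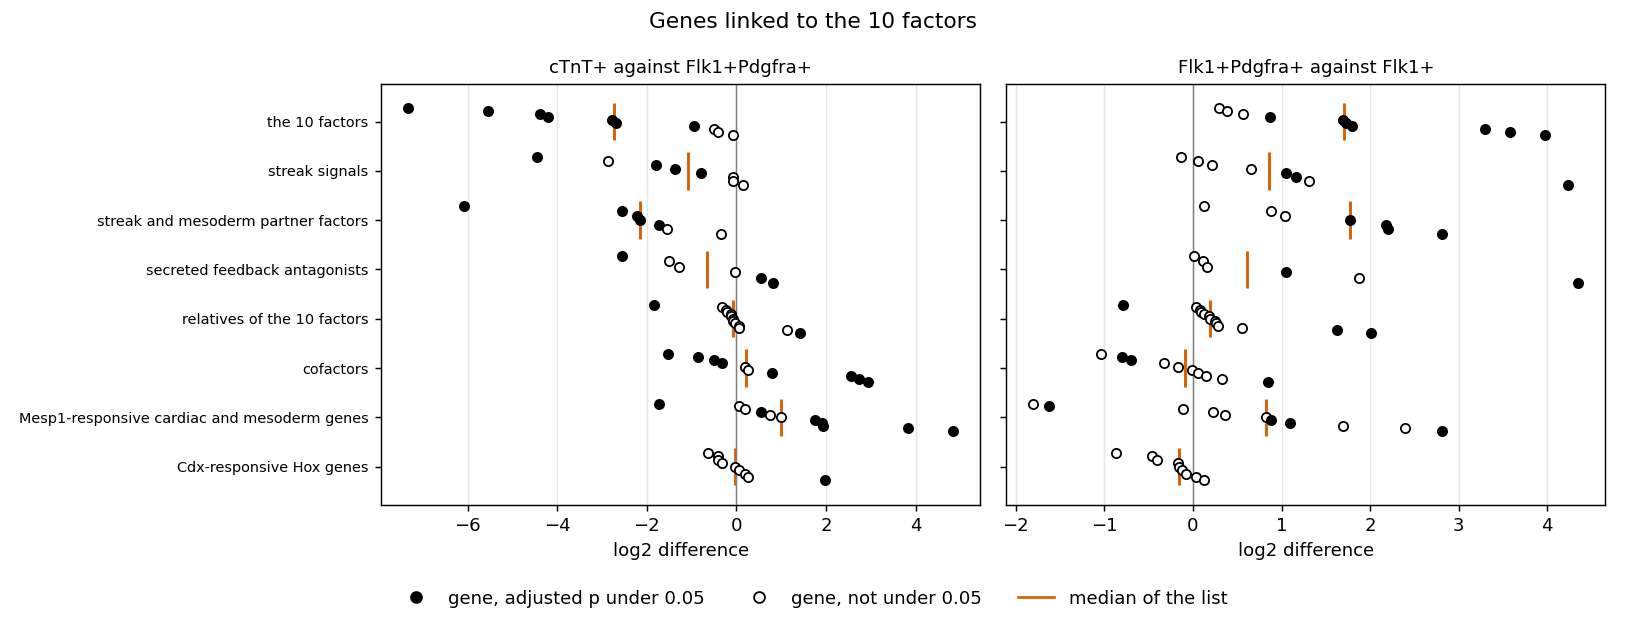
Log2 difference (horizontal axis, scaled per panel) of each measured gene of the lists, for cTnT+ against Flk1+Pdgfra+ and for Flk1+Pdgfra+ against Flk1+. Filled points passed at adjusted p under 0.05 and vertical bars are list medians. The 10 factors have medians of -2.73 and 1.71, the partner factors -2.14 and 1.77, and the Cdx-responsive Hox genes -0.03 and -0.16.

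The genes whose profile was most like that of a factor were ranked by Pearson r over the 9 arrays, which share groups, so r is a description. For Mixl1 these were Wnt3 (r = 0.999), Eomes (0.998) and Eed (0.996). For Mesp1 they were Cplx1 (0.981), Gna14 (0.980) and Nod2 (0.980), and for Mesp2 Lpxn (0.972), Pde8b (0.963) and Gfra3 (0.954). Lpxn and Pde8b averaged 5.57 to 5.59 in cTnT+ and Flk1+ cells, below the lower quartile of the arrays. In Flk1+Pdgfra+ cells they averaged 5.85 and 6.03. Gna14 averaged 6.33 in cTnT+ cells, 9.37 in Flk1+Pdgfra+ cells and 6.64 in Flk1+ cells, which is the form of the Mesp1 profile. For Lhx1 they were Greb1 (0.993), Cbr3 (0.991) and Qrich1 (0.988), and for Otx2 Sp8 (0.992), Has3 (0.989) and Ptprj (0.984). The group means of Qrich1 lay only between 12.03 and 12.32, as r does not measure the size of a change. Gsc was nearest to Greb1 (0.995), Kyat3 (0.994) and Them5 (0.990), and Evx1 to Kyat3 (0.994), Them5 (0.993) and Sec14l4 (0.992), so the 2 factors shared 2 of their 3 nearest genes. For Cdx2 they were Defb5 (0.960), Gltp (0.931) and Prkg2 (0.910), of which Defb5 and Prkg2 lay below the lower quartile of the arrays in every group mean. Cdx1 spanned less than 1 log2 unit and was not ranked, and no genes are named for Cdx4 because of its low level. Among the factors themselves r was 0.99 between Lhx1 and Otx2 and 0.71 between Mesp1 and Mixl1.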

How the data were processed

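Expression was measured on 9 arrays, 3 each of cTnT+, Flk1+Pdgfra+ and Flk1+ cells, grouped by their titles. Per the labels, the deposited values come from a core-gene RMA run by the authors in the Transcriptome Analysis Console, and they lie on the log2 scale. R 3.3.1 is also named, per the submitters' processing notes. RMA normalizes between arrays, so differences in total RNA are not measured, and the array medians still ran from 7.26 to 7.53. Build and library version: not given in the sources used here. Of 23332 transcript clusters, 14996 carried 1 gene symbol, 1019 several and 7317 none. RefSeq (GRCm38.p6) gave current symbols by Entrez identifier for 14941. The brightest transcript cluster per gene was kept, which left 14860 genes. No detection p was used, and the number of arrays limits the precision.

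Groups were compared in R 4.3.3 with limma 3.58.1 (two-sided, lmFit with eBayes, all 9 arrays, 6 residual and 2.23 prior degrees of freedom), with Benjamini-Hochberg adjustment over all 14860 genes. An adjusted p under 0.05 passed, and only then is a gene said to rise or fall. The script was tested on simulated data. The 10 factors, the gene lists and the tests were chosen with earlier results of these data known. Every factor is named, as are up to 3 passing genes per list and comparison with the largest change, and for each factor spanning at least 1 log2 unit the 3 genes with the highest r (predicted genes left out, and Cdx4 left out for its low level after its values were seen). Marker lists are given by their means, with called genes named where a mean hides them. Genes named outside this rule, after their values were seen, are Gata6, Pou5f1, Nanog, Esrrb, Dnmt3b, the falling Snai1, the Hox genes said to be so, Lhx2 and Pax6. Levels were not compared between genes. Promoter windows were 250 bases before the start in RefSeq. Proteins were not compared here.

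Deviations from the group means correlated at 0.251, 0.325 and 0.460 for Flk1+Pdgfra+ and Flk1+ arrays numbered 1, 2 and 3. The main comparisons used no pairing. The numbers entered only as a block in alternatives and in the gate differences read within each number. Arrays 1 and 2 correlated across numbers as well (0.347 and 0.352), so the correlations set number 3 apart but do not establish 3 matched pairs. Correlations with the same-numbered cTnT+ arrays were between 0.0231 and 0.0951, which does not pair them. A block on the 6 progenitor arrays alone was added after the data were seen. Other alternatives were a block on all arrays, a filter on the dimmest 25% of genes, quantile normalization, median centring, an intensity trend with robust moderation, no moderation, array weights, only the arrays compared, the mean of a gene's transcript clusters, every transcript cluster, and arrays left out.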

Additional observations from a re-analysis of the deposited data

How the results depend on the processing

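In cTnT+ cells relative to Flk1+Pdgfra+ cells, Mesp1, Mesp2, Mixl1, Lhx1, Otx2, Gsc and Evx1 kept their call in all 20 alternatives, and 7 to 9 of the 10 factors fell. In Flk1+Pdgfra+ cells relative to Flk1+ cells, Mesp1, Mixl1, Gsc and Evx1 kept their call in all 21 alternatives. The number that rose was 7, against 4 without moderation, 4 with only the arrays of both groups, 4 to 6 with 1 array left out, and all 10 with array weights, where 30.4% of all genes rose. Mesp2 lost its call in 14, Otx2 in 11 and Lhx1 in 7 of the 21. The replicate block on all 9 arrays left 7 that rose and changed none of these calls. The block on the 6 progenitor arrays also left 7, with Mesp2 lost (adjusted p = 0.0865) and Cdx4 gained (adjusted p = 0.0236). In cTnT+ cells relative to Flk1+ cells, 3 factors fell, against 5 after quantile normalization, 5 after median centring, 1 without moderation and 1 to 3 with 1 array left out. The share of all genes that fell there ranged from 12.7% to 31.8%.

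Median centring shifted the median of all genes by -0.33 and -0.34 log2 units in the comparisons of cTnT+ cells with Flk1+Pdgfra+ and with Flk1+ cells, and quantile normalization by -0.09 and -0.14. The Cdx genes passed between the gates with array weights only, apart from the Cdx4 call above. The share of genes higher in Flk1+Pdgfra+ than in Flk1+ cells, 4.64%, ranged from 1.37% to 30.4%, and the share lower, 5.87%, from 3.10% to 20.3%. The share higher in cTnT+ than in Flk1+Pdgfra+ cells ranged from 13.4% to 28.8% and the share lower from 15.1% to 36.4%.

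Signs turned only for differences that passed nowhere in that comparison, except Cdx2 between the gates, which passed under array weights (adjusted p = 0.0269). For cTnT+ against Flk1+, Cdx1 was 0.080, 0.017 and 0.013 without Flk1+ array 1, Flk1+ array 2 and cTnT+ array 2. Cdx2 was -0.13 after quantile normalization, -0.12 after centring, -0.097 without Flk1+ array 2 and -0.43 without cTnT+ array 2. Cdx4 was -0.027 after quantile normalization, -0.27 after centring, -0.013 without Flk1+ array 3, -0.038 without cTnT+ array 2, -0.021 without cTnT+ array 3 and -0.013 without array 3 of the progenitor groups. Mesp2 was 0.0027 without Flk1+ array 1. For Flk1+Pdgfra+ against Flk1+, Cdx2 was -0.025 without Flk1+ array 2. For cTnT+ against Flk1+Pdgfra+, Cdx2 was 0.40 without cTnT+ array 1 and 0.11 without cTnT+ array 3. With 1 array left out, the extremes were -0.17 and 0.08 for Cdx1, -0.43 and 0.69 for Cdx2, -0.04 and 0.25 for Cdx4 and -0.14 and 0.0027 for Mesp2 in cTnT+ against Flk1+ cells. For Cdx2 they were -0.025 and 0.76 between the gates and -0.72 and 0.40 in cTnT+ against Flk1+Pdgfra+ cells. The causes were not tested. The filter on dim genes removed Cdx4. The arrays carry no detection p here, so a level near the lower quartile cannot be told apart from background.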

Other observations

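A pair of other homeobox genes, named after their values were seen, varied widely among the cTnT+ arrays. Lhx2, a LIM homeobox gene, was at 7.40, 8.29 and 10.22 on the cTnT+ arrays, between 7.36 and 7.62 on the Flk1+Pdgfra+ arrays and between 6.85 and 7.06 on the Flk1+ arrays. Pax6, a paired homeobox gene of the neural list, was at 8.83, 7.64 and 6.24 on the cTnT+ arrays, between 5.30 and 5.54 on the Flk1+Pdgfra+ arrays and between 5.35 and 5.54 on the Flk1+ arrays. The cTnT+ array with the highest Cdx2, array 2 at 9.52, was neither the one with the highest Lhx2 nor the one with the highest Pax6.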
